A study of Drosophila melanogaster with 8 samples.

Results

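The noncoding transcripts of the Drosophila larval brain were taken as every feature with a RefSeq noncoding identifier (prefix NR_) that was selected on its summed counts, with 40 or more counts over the 8 libraries. This left 510 of 3746 noncoding features, of which 2208 had at least 1 count, among 34463 features in all. The 3 members just inside the limit (lncRNA:CR44092, lncRNA:CR45472 and lncRNA:CR46478) had 40 counts each. The nearest features outside it were lncRNA:CR45308 and lncRNA:iab4 with 39 counts each and asRNA:CR43159 with 38. By the class named in the gene symbol, 307 members were antisense RNAs (asRNA) and 174 were long noncoding RNAs (lncRNA). The others were 9 small nucleolar RNAs (snoRNA), 7 microRNAs, 3 hairpin RNAs, 3 stable intronic RNAs, 2 precursor ribosomal RNAs, 2 snoRNA host genes, 1 small Cajal body RNA (scaRNA), 1 small nuclear RNA and 1 feature without a symbol. Members covered 49.6% of the 619 annotated antisense RNAs and 7.57% of the 2299 annotated lncRNAs. A typical member was weakly counted, with a median of 226 counts over all libraries, and 112 members had fewer than 80.

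RNA was sequenced from brains of STIM KO larvae aged 72 to 76 h after egg laying (n = 4 samples) and of Canton S (CS) wild type larvae aged 58 to 62 h (n = 4). STIM KO is a CRISPR-Cas9 null mutant of Stim, the endoplasmic reticulum calcium sensor of store-operated calcium entry, and the comparison asks how gene expression in the brain differs when it is lost. The mutants were older than the controls to allow for their slower growth, so genotype and age cannot be told apart. Every sample pooled several brains, and in such bulk RNA fewer cells of a type and less RNA per cell cannot be told apart. The labels call the samples biological replicates but do not say whether they came from separate cultures, so p-values measure the spread between these samples.

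Noncoding RNAs act as RNA. The roX RNAs assemble with the male-specific lethal (MSL) proteins on the male X chromosome, where they raise transcription to compensate for its single copy. SnoRNAs guide chemical modification of ribosomal RNA, and many are cut from the introns of host genes, whose spliced transcripts may code for no protein. Antisense RNAs are transcribed from the strand opposite to a gene and may share sequence with its messenger RNA.

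The libraries held 395680 to 2090717 counted reads, and a limit of 3 counts corresponded to between 1.28 and 9.51 CPM (counts scaled to a common library size with the edgeR TMM factors, and with a prior count of 2 where given as log2 CPM). Replicates 3 and 4 of both genotypes stood apart from replicates 1 and 2 of both, and no label names a batch. They are called library sets below. Spearman's rho of the members' log2 CPM was 0.587 to 0.932 between libraries of the same set and 0.329 to 0.495 between libraries of different sets, over 510 members that share each library's depth. Transcripts of Stim had 13.9, 27.4, 1.45 and 1.0 CPM in STIM KO replicates 1 to 4, against 19.0, 8.06, 5.59 and 5.97 CPM in CS. The groups overlapped at the targeted gene within replicates 1 and 2, where STIM KO replicate 2 was above every control, so these counts (2 to 19 in STIM KO and 4 to 14 in CS) do not check the genotype labels. Summed neuronal markers were at 2138, 3048, 801 and 586 CPM in STIM KO replicates 1 to 4, against 3223, 2074, 580 and 385 CPM in CS. The neuronal sums separated by library set and overlapped between genotypes. Summed glial markers were at 771 to 2547 CPM in STIM KO and 1026 to 1583 CPM in CS. All 4 neuroblast markers passed the filter on low counts and summed to 185 to 761 CPM in STIM KO and 869 to 1137 CPM in CS. Of 4 salivary gland markers, 3 passed and 1 (Sgs3) was at 0, with sums of 86.3 to 1316 CPM in STIM KO and 16.1 to 126 CPM in CS. Of 4 ring gland markers 3 (dib, sad and nvd) passed. The name phm was matched to another gene, ph-d, so phm itself was not measured. The ring gland sums, which include at most 6.99 CPM of ph-d, were 116 to 446 CPM in STIM KO and 403 to 1493 CPM in CS. Fat body markers summed to at most 1.99 CPM in any library, with Fbp1 and Fbp2 at 0. Only reads that 1 transcript holds alone were counted, so a marker at 0 does not show that its tissue was absent. Gut markers, none of which passed and with betaTry at 0, summed to 217 and 221 CPM in STIM KO replicates 1 and 4. Both of these values came from Jon65Aiv alone. The gut sums were at most 2.89 CPM in the other mutant libraries and at most 10.7 CPM in CS. Of 4 muscle markers 1 (Mlc2) passed, with sums of 215 to 941 CPM in STIM KO and 287 to 911 CPM in CS. Mlc2 alone had 213 to 908 CPM in STIM KO and 286 to 887 CPM in CS. The part of these markers in the results below was not tested.

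Noncoding features took a larger share of the counted reads in STIM KO brains than in CS brains. The share was 7.78%, 5.29%, 4.13% and 4.26% in STIM KO replicates 1 to 4, against 3.33%, 3.67%, 3.89% and 3.78% in CS replicates 1 to 4. By this measure all STIM KO libraries were above all CS libraries, and the means differed by 1.69 percentage points. As a share of all reads of a library, counted or not, noncoding features took 0.569%, 0.283%, 0.405% and 0.453% in STIM KO and 0.120%, 0.152%, 0.414% and 0.438% in CS, and the groups overlapped, with STIM KO replicates 2 and 3 below CS replicates 3 and 4. Without STIM KO replicate 1 the difference in the share of counted reads was 0.889 percentage points. Much of the excess was 1 transcript, lncRNA:CR44922, which held 41.2% of the noncoding counts of STIM KO replicate 1. With its counts left out the shares were 4.73%, 4.73%, 4.01% and 4.20% in STIM KO and 3.28%, 3.63%, 3.77% and 3.68% in CS, still without overlap. Antisense RNAs made up 2.54%, 2.41%, 3.27% and 3.40% of counted reads in STIM KO, against 1.58%, 1.74%, 3.02% and 3.02% in CS. LncRNAs made up 4.98%, 2.70%, 0.73% and 0.75% in STIM KO, against 1.57%, 1.43%, 0.75% and 0.66% in CS. The antisense share was higher in replicates 3 and 4 and the lncRNA share in replicates 1 and 2, in both genotypes. Antisense RNAs held 295025 of the 448214 member counts. The kit does not mark the strand, so their share may hold reads of genes on the opposite strand. The same limit holds for the 52 of 174 lncRNAs that overlapped exons of the opposite strand. How much of the noncoding share such reads make up was not tested.

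**Figure D1:**
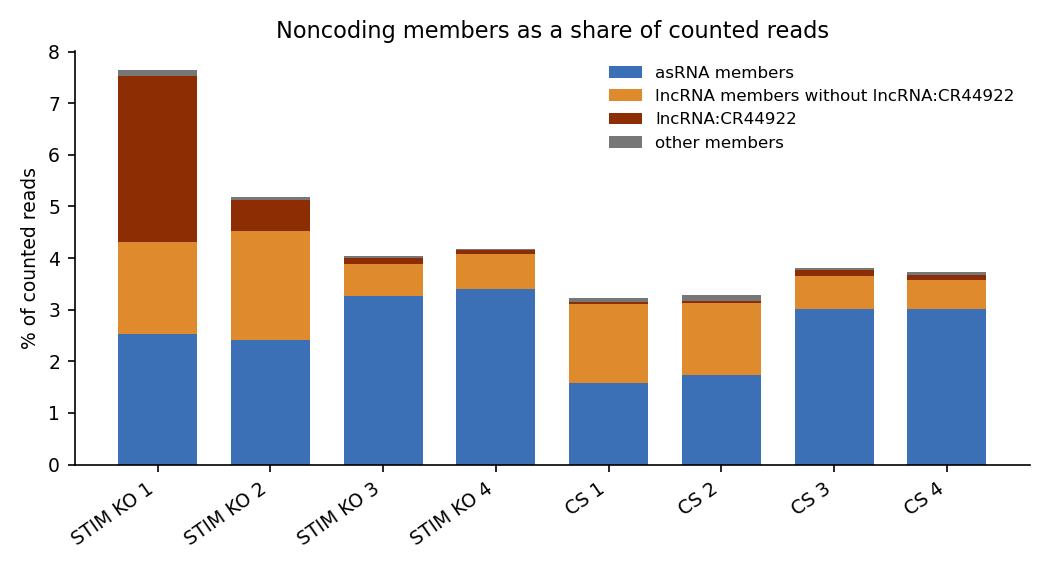
Share of counted reads (%, vertical axis) on the noncoding members in each of the 8 libraries, split into asRNA, lncRNA without lncRNA:CR44922, lncRNA:CR44922 and other members. The asRNA part is larger in replicates 3 and 4 of both genotypes, and lncRNA:CR44922 is large in STIM KO replicate 1. The asRNA part may hold reads of genes on the opposite strand.

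Of the 510 members 388 passed the filter on low counts and were fitted with all 5829 features tested. Of these members, 2 passed only through the STIM KO libraries, 31 only through replicates 3 and 4, and 10 only through replicates 1 and 2. In the comparison of STIM KO with CS no member passed an adjusted p of 0.05 (edgeR quasi-likelihood test, Benjamini-Hochberg adjustment, smallest adjusted p 0.387), and 0% of all features tested did. At an unadjusted p under 0.05 there were 27 members, 22 higher and 5 lower in STIM KO, and 6.09% of all features, 195 higher and 160 lower. DESeq2 called 8 of the 388 members (2.06%) on the same libraries, beside 1.4% of all features. The edgeR fit of every feature with at least 1 count called 2 of 510 members (0.392%), beside 0.187% of all features. The median log2 fold change was 0.31 over the members tested, 0.79 over 103 lncRNAs and 0.18 over 273 antisense RNAs, against 0.05 over all features tested. The median was 0.82 for the 63 tested lncRNAs whose exons share no base with another annotated exon on either strand. In log2 CPM, the median of all features itself shifted by 0.13 with TMM scaling, 0.09 with DESeq2 size factors (RLE) and 0.18 by library size alone.

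Taking the library set as a term in the fit, 2 members passed and both were lower in STIM KO, with 0.669% of all features passing. These were pre-rRNA:CR45845 and asRNA:CR45890. Without STIM KO replicate 2 or without CS replicate 2 no member passed (0.124% and 0.0313% of all features did), and without STIM KO replicate 1 the count was 5 (1.12% of all features). With the same term DESeq2 called 32 of 388 members (8.25%), beside 7.69% of all features. The edgeR fit of every feature with at least 1 count called 47 of 510 (9.22%), beside 3.0% of all 16016 features. That 3.0% again includes features with under 40 counts, which no member has, so it is not a like background for the members. Blocking on the replicate number gave the same 2 members as the set term, beside 0.24% of all features. In the filtered edgeR fit with the set as a term, 79 members had an unadjusted p under 0.05 (56 higher and 23 lower), beside 16.8% of all features (522 higher and 459 lower). No genotype difference was shown to depend on the set: 0 members passed in the edgeR interaction test (smallest adjusted p 0.064 with Benjamini-Hochberg adjustment), 74 had an unadjusted p under 0.05, and the background was 15.4%. The 8 libraries did not overlap between genotypes for 24 members that were higher and 8 that were lower in STIM KO, beside 3.32% and 2.68% of the 7051 features with 40 counts or more. Within both library sets taken singly, genotypes did not overlap for 77 members higher and 26 lower, beside 10.0% and 8.11% of those features. Whether the excess on the higher side differs from the background was not tested.

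**Figure D2:**
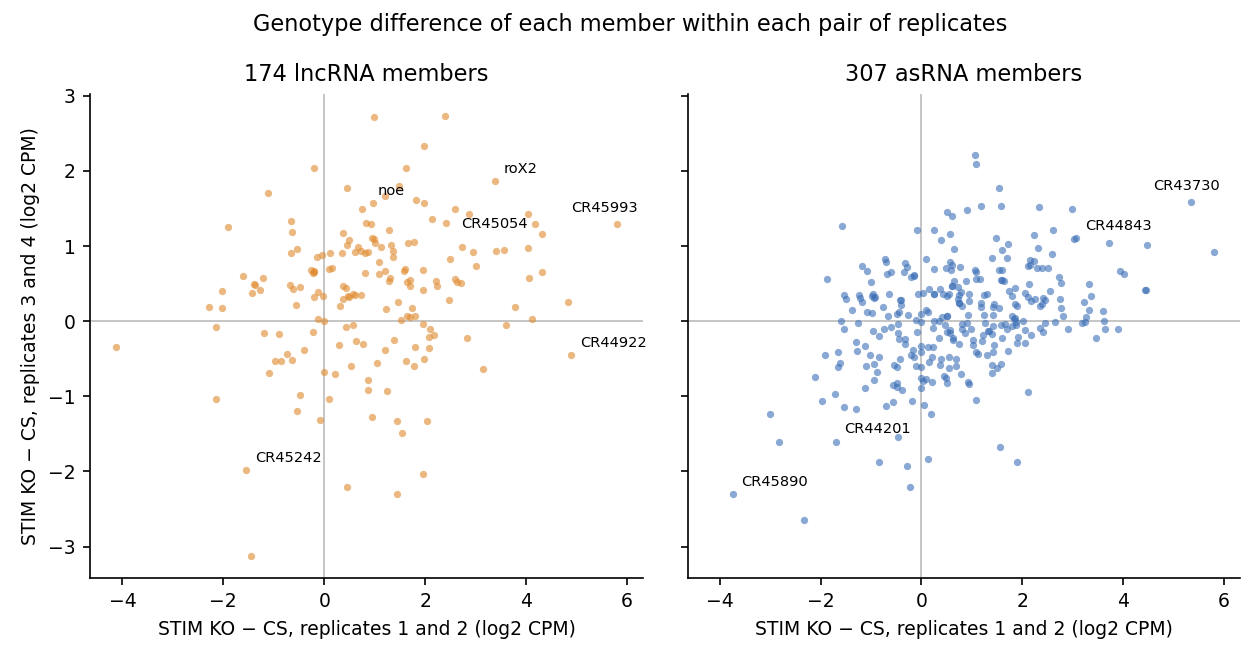
Difference in log2 CPM between STIM KO and CS in replicates 3 and 4 (vertical axis) against that in replicates 1 and 2 (horizontal axis), with 1 point per member, for 174 lncRNAs and 307 antisense RNAs. lncRNA:noe and lncRNA:CR45054 are above 1 on both axes, whereas lncRNA:CR44922 is at -0.46 in replicates 3 and 4 and 4.90 in replicates 1 and 2.

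LncRNAs described first have exons of their own, and none passed the edgeR test between genotypes with TMM scaling and the filter on low counts. LncRNA:CR45054 (NR_125127.1, chromosome 3R, 10083381 to 10090525, dm6) had the smallest p of all members in the genotype comparison, for which it was singled out after its values were seen. It had 88.5, 110, 59.6 and 70.3 CPM in STIM KO replicates 1 to 4, against 19.0, 12.1, 20.5 and 23.9 CPM in CS. Each STIM KO library was above each CS library in both sets. Its log2 fold change was 2.10 ± 0.46 (SE), with an unadjusted p of 0.0011 (adjusted p 0.387, edgeR quasi-likelihood test, Benjamini-Hochberg adjustment), and 2.04 ± 0.40 when the library set was a term (adjusted p 0.051, and 0.049 with DESeq2 size factors). DESeq2 called it, with an adjusted p of 0.0010.

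LncRNA:noe (NR_144649.1, chromosome 3L, 17400272 to 17401348, within the span of blot on the same strand but outside its exons) was more abundant. Its level was 908, 354, 442 and 544 CPM in STIM KO, against 108, 192, 188 and 143 CPM in CS. Each mutant library was above each control. The mean log2 CPM differed by 1.77 (exact permutation test, 2-sided, p = 0.0286, the smallest that 70 labelings of 4 against 4 allow), by 1.57 within replicates 3 and 4 and by 1.97 within replicates 1 and 2. The fitted log2 fold change of noe was 1.83 ± 0.48 (SE), with an adjusted p of 0.504, and an adjusted p of 0.064 with the set as a term (edgeR quasi-likelihood test, Benjamini-Hochberg adjustment).

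LncRNA:CR44922 (NR_125060.1, chromosome 3R, 4375084 to 4377600) was the most counted member and took 11% of all member counts. Its counts in STIM KO replicates 1 to 4 were 36201, 5364, 2007 and 984, and those in CS replicates 1 to 4 were 204, 238, 2120 and 2152. Only the first 2 mutant libraries were high: 36003 and 7742 CPM there, 973 and 494 CPM in the other 2 mutant libraries, and 480 to 988 CPM in CS. STIM KO differed from CS by -0.46 log2 CPM within replicates 3 and 4 and by 4.90 within replicates 1 and 2, and the interaction had an unadjusted p of 0.0004 (adjusted p 0.090, edgeR quasi-likelihood test, Benjamini-Hochberg adjustment). Its fitted log2 fold change was 3.90 ± 1.36 (SE), and 1.96 without STIM KO replicate 1. LncRNA:CR45993 (NR_133124.1, chromosome 2R, 16153263 to 16153811), chosen after its values were seen, had 389, 841, 20.8 and 8.54 CPM in STIM KO, against 9.51, 8.06, 5.59 and 3.84 CPM in CS. STIM KO exceeded CS within each set, by 1.29 log2 CPM within replicates 3 and 4 and by 5.81 within replicates 1 and 2, but STIM KO replicate 4 lay below CS replicate 1.

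LncRNA:CR45242 (NR_124849.1, chromosome 3L, 10269482 to 10270353) lay in the other direction. It had 23.9, 15.9, 7.76 and 23.6 CPM in STIM KO, against 47.5, 74.6, 47.1 and 73.0 CPM in CS. The groups did not overlap, STIM KO differed by -1.98 log2 CPM within replicates 3 and 4 and by -1.54 within replicates 1 and 2, and the fitted log2 fold change of -1.77 ± 0.52 (SE) had an adjusted p of 0.590 (edgeR quasi-likelihood test, Benjamini-Hochberg adjustment). It was the only lncRNA among the 174 that was lower in STIM KO without overlap, beside 11 that were higher, where 2.68% and 3.32% of all features with 40 counts or more lay apart in these directions.

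Among the dosage compensation RNAs, roX2 (NR_002104.2, X chromosome, 11579065 to 11580432) was counted more often in STIM KO. Its counts were 64, 39, 42 and 48 in STIM KO replicates 1 to 4, against 0, 11, 9 and 14 in CS, equal to 63.7, 56.3, 20.4 and 24.1 CPM in STIM KO and 0, 22.2, 4.19 and 5.97 CPM in CS. CS replicate 2 lay between the mutant libraries of replicates 3 and 4, and all others were separate. It differed by 1.87 log2 CPM within replicates 3 and 4 and by 3.39 within replicates 1 and 2 (exact permutation test over all 8 libraries, 2-sided, p = 0.0571). The log2 fold change was 2.34 ± 0.91 (SE) with an adjusted p of 0.746, and 2.19 ± 0.61 with the set as a term, where the adjusted p was 0.119 (edgeR quasi-likelihood test, Benjamini-Hochberg adjustment). With the set as a term, roX2 passed in DESeq2 (adjusted p 0.0019) and in edgeR when every feature of at least 1 count was kept (adjusted p 0.012).

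RoX1 (NR_123784.1, X chromosome, 3857230 to 3862697), which is redundant with roX2 in dosage compensation, had 14, 30, 4 and 0 counts in STIM KO, against 10, 7, 9 and 2 in CS. The groups overlapped, and its log2 fold change of 0.32 ± 1.46 (SE) turned to -0.27 ± 0.78 with the set as a term. Of the MSL proteins 4 of 5 were tested and none passed. Only msl-3, a chromodomain subunit, had an unadjusted p under 0.05 (log2 fold change 1.27, adjusted p 0.746, edgeR quasi-likelihood test, Benjamini-Hochberg adjustment), with 77.6, 79.4, 136 and 154 CPM in STIM KO and 50.7, 78.6, 31.7 and 26.5 CPM in CS. Msl-2, the subunit translated in males, was at 0 counts in replicates 1 and 2 of both genotypes and at 10 and 19 counts in STIM KO and 20 and 8 counts in CS in replicates 3 and 4. The labels do not give the sex of the pooled larvae, and a part of sex in roX2 was not tested.

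Transcripts tied to ribosome production were mixed. Uhg4 (NR_033156.2, chromosome 2R, 9095273 to 9097312), a snoRNA host gene, had 42.8, 46.2, 55.3 and 57.8 CPM in STIM KO, against 165, 125, 68.9 and 68.7 CPM in CS. All mutant libraries were below all controls, by -0.28 log2 CPM within replicates 3 and 4 and by -1.66 within replicates 1 and 2. The log2 fold change of Uhg4 was -1.07 ± 0.45 (SE, unadjusted p 0.041, adjusted p 0.790, edgeR quasi-likelihood test, Benjamini-Hochberg adjustment). SnoRNA:Or-CD2, which lies inside Uhg4, had 6, 2, 20 and 25 counts in STIM KO and 9, 10, 19 and 16 counts in CS, and its groups overlapped. Both share exon bases with Ctu1 on the opposite strand, which differed by -0.22 log2 CPM, against -0.97 for Uhg4. The kit does not mark the strand, so counts of both may hold reads of Ctu1.

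Pre-rRNA:CR45845 (NR_133549.1, a ribosomal RNA precursor annotated on X and Y) had 57, 42, 1 and 2 counts in STIM KO, against 96, 282, 7 and 18 in CS. Within each set the mutant libraries were lower, at 0.48 and 1.0 CPM in STIM KO against 3.26 and 7.68 CPM in CS in replicates 3 and 4, and at 56.7 and 60.6 CPM in STIM KO against 304 and 568 CPM in CS in replicates 1 and 2. With the set as a term its log2 fold change was -2.86 ± 0.43 (SE), with an adjusted p of 0.019 (edgeR quasi-likelihood test, Benjamini-Hochberg adjustment). Without that term the adjusted p was 0.896. Its log2 fold change between the sets was -6.24. The other precursor, pre-rRNA:CR45856, had 207, 278, 17 and 23 counts in STIM KO and 55, 141, 10 and 11 in CS. Ribosomal RNA repeats are near-identical and the reads were primed on poly(A) tails, so counts on either precursor are uncertain. Of 8 snoRNP proteins, with hoip at 0 counts in all 8 libraries, 5 were tested and none passed. Summed levels were 906 to 1628 CPM in STIM KO and 1676 to 2897 CPM in CS. Log2 fold changes lay on the lower side for Fib (-0.58), nop5 (-0.41), Nop56 (-0.97), CG4038 (-1.29) and CG7637 (-1.59).

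**Figure D3:**
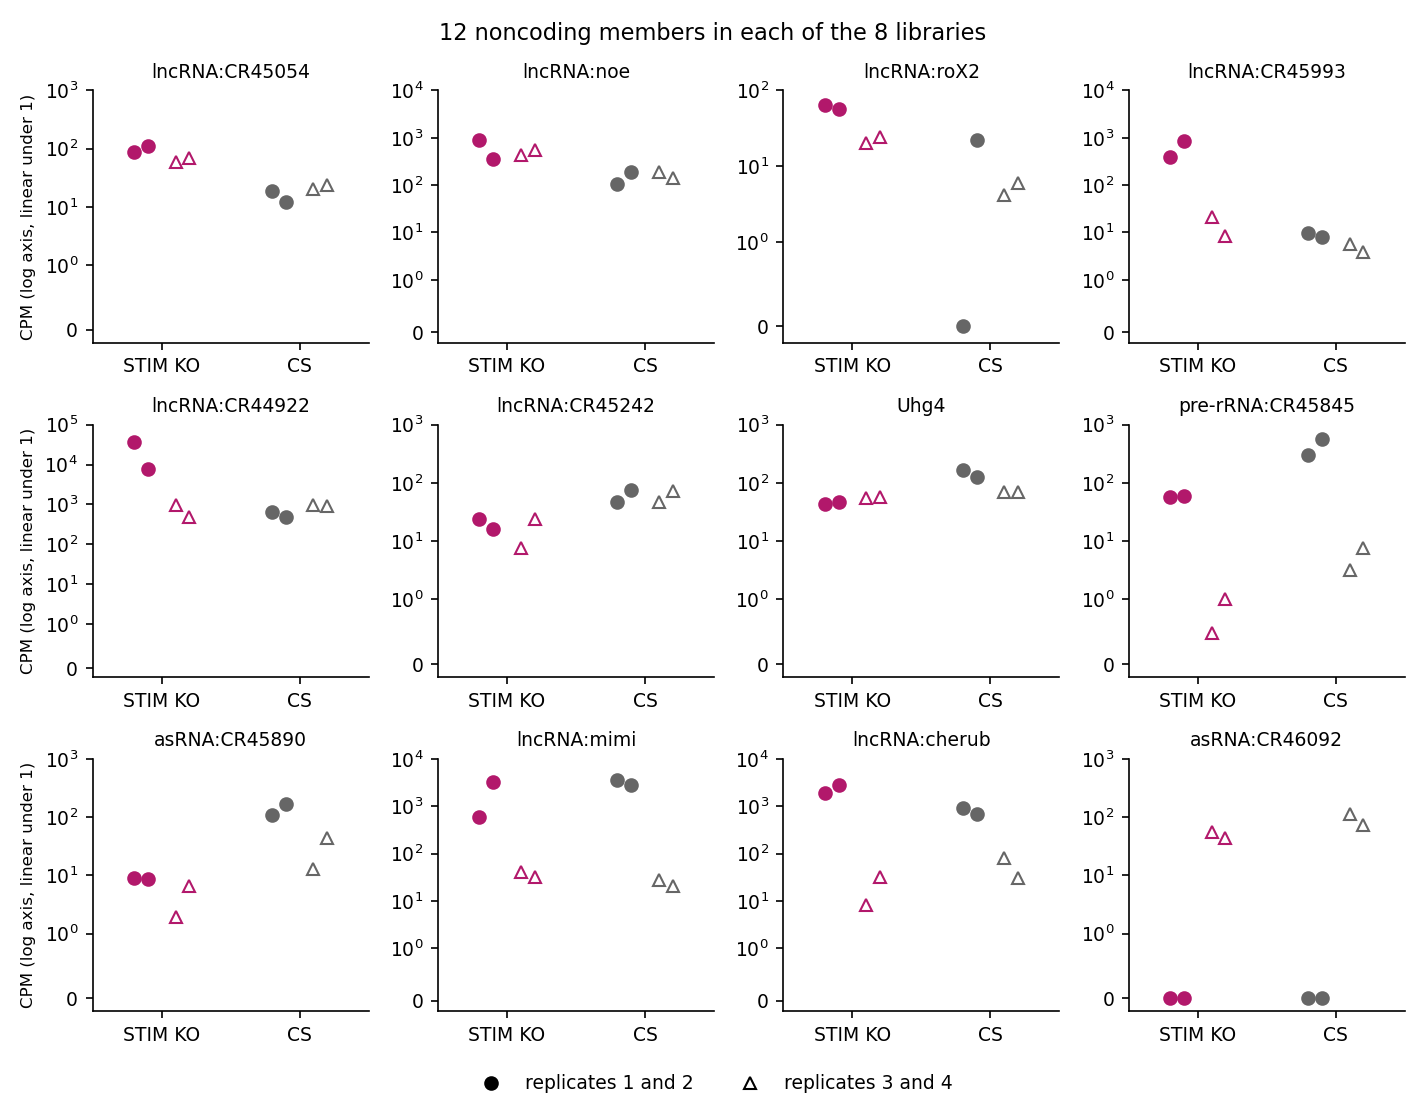
CPM (log axis, linear under 1) of 12 members in STIM KO (left) and CS (right), with filled circles for replicates 1 and 2, open triangles for replicates 3 and 4 and 1 point per library. lncRNA:CR45054, lncRNA:noe, lncRNA:CR45242, Uhg4 and asRNA:CR45890 separate by genotype. lncRNA:mimi, lncRNA:cherub, asRNA:CR46092 and pre-rRNA:CR45845 separate by library set.

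Antisense RNAs need to be read beside the gene on the opposite strand. All 307 overlapped exons of that strand, over a median of 74.7% of their own exon bases, and 21 lay wholly inside them. The kit does not mark the strand, and reads of an antisense RNA and its partner cannot be told apart. Of all 32 annotated antisense RNAs wholly inside opposite exons, 30 had counts, up to 2238 for asRNA:CR43425 opposite unc-13. Of the 185 antisense members whose partner had 40 or more counts, 67 had more counts than the partner. The other 122 had partners under 40 counts. Since every member had 40 or more, each of these exceeded its partner by the selection itself. They bring the total to 189 of the 307, and only the 67 of 185 were not fixed by the selection in this way. Reads shared by several transcripts of a partner were left out of its counts, and the kit does not mark the strand. The 67 therefore do not show that the antisense RNA was the more abundant transcript.

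Across those 185 antisense RNAs the genotype difference in log2 CPM went with that of the partner (Pearson's r 0.576, Spearman's rho 0.548), and 135 (73.0%) had the same sign as the partner. The difference between library sets did so too (r 0.545, rho 0.558), with 146 (78.9%) of the same sign. These are descriptions across genes that share the same 8 libraries, and genes are not independent replicates. Of 62 antisense RNAs that differed by more than 1 log2 CPM between genotypes, the partner differed in the same direction for 53, and by more than 1 for 26.

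**Figure D4:**
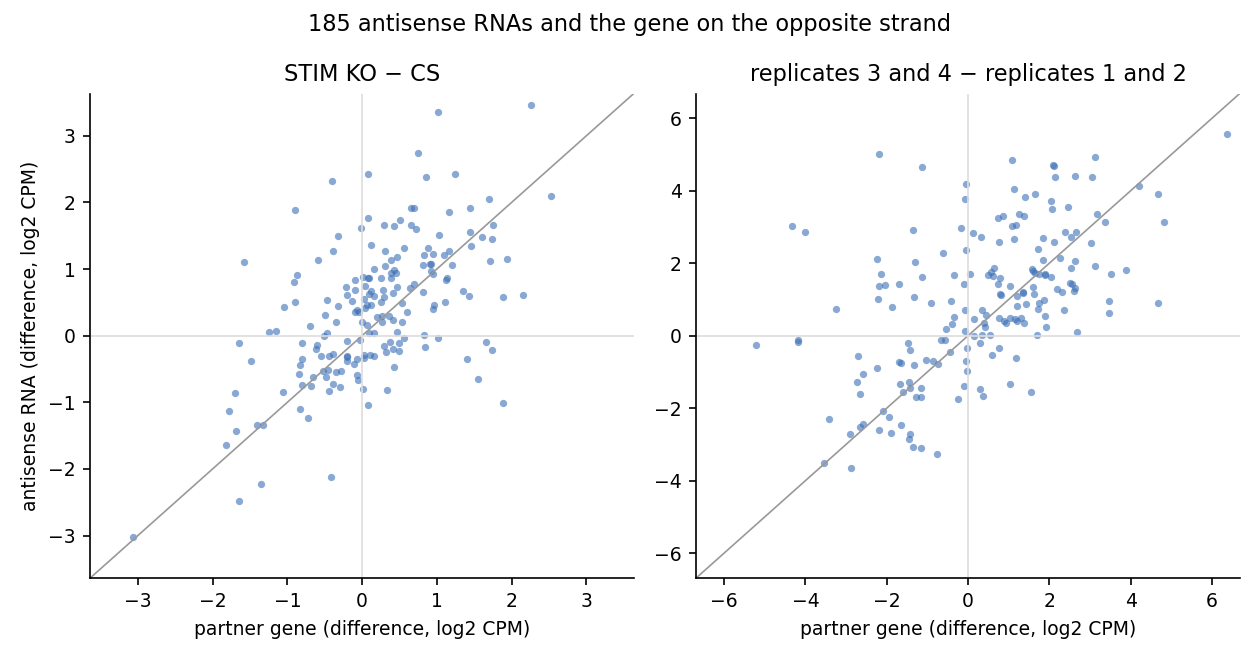
Difference in log2 CPM of 185 antisense RNAs (vertical axis) against that of the gene on the opposite strand (horizontal axis), between STIM KO and CS (left) and between replicates 3 and 4 and replicates 1 and 2 (right), with the line of equal differences. Points of the same sign make up 135 of the left panel and 146 of the right panel.

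An abundant pair was asRNA:CR44843 (NR_124940.1, chromosome 3L, 14560000 to 14560953) and Lk, which encodes the neuropeptide leucokinin. The antisense RNA had 2292, 721, 1499 and 3229 counts in STIM KO, against 68, 76, 960 and 1336 in CS. Lk had 1872, 605, 1356 and 2932 counts in STIM KO, against 24, 44, 881 and 1158 in CS. The ratio of antisense to Lk counts was 1.10 to 1.22 in STIM KO and 1.09 to 1.15 in replicates 3 and 4 of CS. It was 2.83 and 1.73 in replicates 1 and 2 of CS, where both transcripts were low. The log2 CPM of CR44843 differed by 2.09 and that of Lk by 2.53 between genotypes, each higher in STIM KO, and the fitted log2 fold change of CR44843 was 2.03 ± 0.64 (SE, unadjusted p 0.011, adjusted p 0.617, edgeR quasi-likelihood test, Benjamini-Hochberg adjustment).

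A near-fixed ratio was seen at other loci. AsRNA:CR43875, the most abundant antisense member, had 4825, 6158, 1770 and 1202 counts in STIM KO and 543, 1027, 1021 and 1612 in CS. Its ratio to alphaSnap, which encodes a factor that takes apart SNARE complexes after membrane fusion, was 0.194 to 0.255 in STIM KO and 0.236 to 0.262 in CS. AsRNA:CR45798 had a ratio of 0.570 to 0.630 in STIM KO and 0.553 to 0.670 in CS to Rab1, a GTPase of transport from the endoplasmic reticulum. In these 2 pairs the ratio varied far less than the counts. Over the 96 antisense RNAs with counts of both transcripts in all 8 libraries, the median ratio of highest to lowest was 4.83, and it was under 4 for 43. A near-fixed ratio was thus not seen at most of these loci. Pairs with few counts in a library were included, and the part of counting error in this spread was not tested.

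AsRNA:CR45890 (NR_133248.1, chromosome 3L, 16302544 to 16303531) had 9, 6, 4 and 13 counts in STIM KO, against 35, 82, 28 and 103 in CS. Its partner CG13044 had 2, 10, 4 and 19 counts in STIM KO, against 29, 67, 35 and 99 in CS. In CPM, each mutant library had less of the antisense RNA than each control. Its log2 fold change with the set as a term was -3.34 ± 0.58 (SE, adjusted p 0.034, edgeR quasi-likelihood test, Benjamini-Hochberg adjustment). AsRNA:CR44201, opposite the glyoxalase gene Glo1, had 26.8, 23.1, 12.1 and 16.1 CPM in STIM KO, against 88.7, 78.6, 41.9 and 49.1 CPM in CS. It differed by -1.65 log2 CPM and Glo1 by -1.82.

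For other antisense RNAs without overlap between genotypes, the difference stands beside that of the partner, and the gap between them was not tested. AsRNA:CR43730 had 297, 262, 101 and 94 counts in STIM KO, against 0, 23, 30 and 38 in CS, and differed by 3.46 log2 CPM where its partner JhI-26, a juvenile hormone-inducible gene, differed by 2.26. AsRNA:CR45056, opposite the immunoglobulin-domain gene dpr4, had 483, 87, 214 and 145 counts in STIM KO, against 0, 6, 114 and 91 in CS, and differed by 3.36 where dpr4 differed by 1.01. Its difference was 0.92 log2 CPM within replicates 3 and 4 and 5.80 within replicates 1 and 2 (interaction unadjusted p 0.003, adjusted p 0.148, edgeR quasi-likelihood test, Benjamini-Hochberg adjustment). The fitted log2 fold change of CR45056 was 2.83 ± 1.01 (SE), and 1.83 without STIM KO replicate 1. AsRNA:CR45951, opposite the ubiquitin ligase gene park and chosen after its values were seen, had 271, 160, 205 and 176 CPM in STIM KO, against 60.2, 64.5, 81.1 and 106 CPM in CS. Park itself had no more than 3 counts in any library, so the pair could not be compared. AsRNA:CR45814 was lower, with 8, 1, 17 and 13 counts in STIM KO and 12, 21, 60 and 31 in CS (-2.12 log2 CPM, against -0.42 for its partner CG13926). AsRNA:CR44907 (bwa, a ceramidase) had 54, 12, 9 and 9 counts in STIM KO and 0, 0, 1 and 7 in CS, a difference of 2.74 log2 CPM against 0.74 for bwa. AsRNA:CR46038 (knk, a chitin organiser) had 0, 0, 1 and 6 counts in STIM KO and 4, 3, 27 and 10 in CS, a difference of -2.22 against -1.36 for knk.

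AsRNA:CR44275, chosen after its values were seen because it lies opposite the neuroblast transcription factor gene dpn, had 38, 45, 53 and 132 counts in STIM KO, against 55, 73, 181 and 114 in CS. Of its exon bases 98.1% overlapped dpn, which had 14, 84, 77 and 243 counts in STIM KO and 124, 199, 256 and 151 in CS. The log2 CPM difference was -1.14 for the antisense RNA and -1.78 for dpn, and the groups overlapped for both. Dpn differed by -0.37 within replicates 3 and 4 and by -3.20 within replicates 1 and 2. The neuroblast marker sum given above includes dpn and was lower in each STIM KO library than in each CS library. Of the markers in it, ase was also lower in this way, whereas the genotypes overlapped for dpn, mira and wor. The part of the neuroblast markers in this antisense RNA was not tested.

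Noncoding members, like all features, differed more often between the library sets than between the genotypes. Since the sets were recognised from these counts, the values are descriptions. Between the sets, 198 of 388 members (51.0%) passed (edgeR, Benjamini-Hochberg adjusted p under 0.05), beside 51.1% of all features tested. Of these 120 were higher in replicates 3 and 4 and 78 were lower, beside 27.6% and 23.5% of all features. When scaled by library size only, the split was 167 higher and 47 lower, beside 38.5% and 16.7% of all features. The median log2 CPM difference of all features between the sets was itself 0.33 with TMM scaling and 0.84 by library size. Antisense RNAs and lncRNAs differed in direction: 105 antisense RNAs were higher and 38 lower of 273, and 13 lncRNAs were higher and 36 lower of 103. Both precursor rRNAs were lower.

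**Figure D5:**
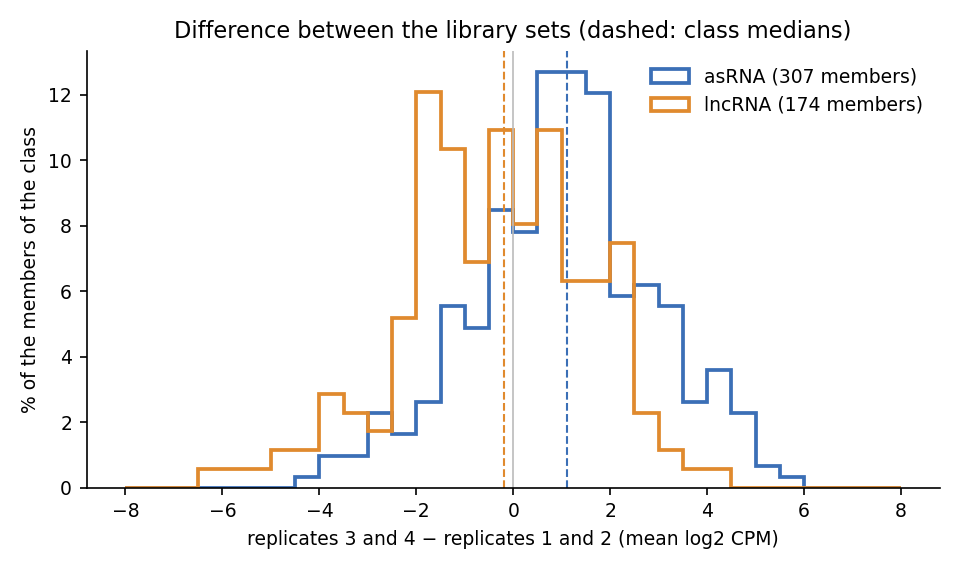
Distribution of the difference in mean log2 CPM between replicates 3 and 4 and replicates 1 and 2 (horizontal axis) as % of the members of each class (vertical axis), for 307 antisense RNAs and 174 lncRNAs. The class medians (dashed) are 1.10 for antisense RNAs and -0.18 for lncRNAs.

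Some members were nearly confined to 1 set. LncRNA:mimi (NR_048472.1, chromosome 3R, 23983503 to 23985065) had 41.7 and 31.6 CPM in STIM KO replicates 3 and 4, against 597 and 3173 CPM in STIM KO replicates 1 and 2. In CS it had 28.0 and 20.5 CPM in replicates 3 and 4, against 3619 and 2794 CPM in replicates 1 and 2. LncRNA:CR43264 had 0 and 3 counts in STIM KO and 11 and 3 in CS in replicates 3 and 4, against 96 and 35 in STIM KO and 93 and 164 in CS in replicates 1 and 2. The opposite was seen for asRNA:CR46092, opposite the tRNA synthetase gene GluProRS, with 113 and 87 counts in STIM KO and 246 and 173 in CS in replicates 3 and 4 but 0 in all 4 libraries of replicates 1 and 2. GluProRS had 321 and 373 counts in STIM KO and 861 and 620 in CS in replicates 3 and 4, but at most 4 in any library of replicates 1 and 2. In all, 7 members (1.37%) had no count in replicates 1 and 2, beside 1.84% of the 7051 features with 40 counts or more, and no member or other such feature lacked counts in replicates 3 and 4. The 273 members counted in every library were 53.5%, beside 71.3% of those features.

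AsRNA:CR45960 and asRNA:CR44321 were higher in replicates 3 and 4. AsRNA:CR45960 had 662 and 453 counts in STIM KO and 377 and 208 in CS in replicates 3 and 4, against 20 and 1 in STIM KO and 0 and 2 in CS in replicates 1 and 2. Its partner, the kinase gene Srpk79D, had at most 4 counts in any library, so the pair could not be compared. AsRNA:CR44321 had 821 and 639 counts in STIM KO and 414 and 650 in CS in replicates 3 and 4, against 179 and 4 in STIM KO and 0 and 1 in CS in replicates 1 and 2. Its log2 CPM differed by 5.01 between the sets, whereas that of Ald1, the aldolase gene opposite, differed by -2.20.

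Named lncRNAs also differed in level between the sets. Hsromega (NR_074035.1), the nuclear heat shock RNA that organises omega speckles, had 325 and 586 counts in STIM KO and 73 and 68 in CS in replicates 3 and 4. In replicates 1 and 2 it had 1435 and 6299 counts in STIM KO and 598 and 874 in CS. The genotypes differed by 2.72 log2 CPM within replicates 3 and 4 and by 0.98 within replicates 1 and 2, where the libraries overlapped. With the set as a term its log2 fold change was 2.17 ± 0.59 (SE, adjusted p 0.115, edgeR quasi-likelihood test, Benjamini-Hochberg adjustment). The second Hsromega transcript (NR_048444.1) had at most 15 counts in any library.

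Cherub, a lncRNA known from neuroblasts and their tumours, had 17 and 65 counts in STIM KO and 172 and 71 in CS in replicates 3 and 4, against 1880 and 1948 in STIM KO and 285 and 339 in CS in replicates 1 and 2. The genotypes differed by -1.49 log2 CPM within replicates 3 and 4 and by 1.54 within replicates 1 and 2. The sign turned with the set, and the interaction had an unadjusted p of 0.009 (adjusted p 0.206, edgeR quasi-likelihood test, Benjamini-Hochberg adjustment). Let7C, the primary transcript of a developmental microRNA cluster, was low throughout, with 4, 13, 23 and 18 counts in STIM KO and 5, 6, 11 and 9 in CS, and its groups overlapped.

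Small RNA genes gave few members, and most of those described here lie within the span of another gene. The reads were primed on poly(A) tails and the kit does not mark the strand. Counts on small RNA genes may therefore hold reads of longer transcripts over the same bases. How much they hold was not tested, and the counts do not give the levels of the small RNAs themselves. Mir-979 had 383, 83, 25 and 3 counts in STIM KO, against 0, 0, 1 and 1 in CS. The groups did not overlap. It lies wholly inside exons of Grip84, a gamma-tubulin ring gene on the opposite strand, which had 828, 100, 77 and 30 counts in STIM KO and 2, 2, 3 and 2 in CS. Mir-979 did not pass the filter on low counts. In the fit without that filter its adjusted p was 0.013 (edgeR quasi-likelihood test, Benjamini-Hochberg adjustment).

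Mir-4964, within rdgA, had 46, 75, 12 and 5 counts in STIM KO and 9, 9, 5 and 3 in CS. Mir-998, within the cell cycle regulator gene E2f1, had 40, 21, 9 and 5 counts in STIM KO and 0, 1, 5 and 13 in CS. Both were high in STIM KO replicates 1 and 2, and for both the genotypes overlapped over the 8 libraries. The 4 snoRNAs lola-a to lola-d, which lie side by side within lola, had 98, 36, 51 and 34 counts in STIM KO replicate 1 and at most 25 in any other library. These 4 share a locus and the library in which they were high.

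SnoRNA:Psi18S-531, which lies within the ribosomal protein gene RpL22, had 65, 10, 130 and 86 counts in STIM KO and 9, 7, 235 and 526 in CS. LncRNA:CR42491, chosen after its values were seen because it spans the same bases, had 956, 91, 706 and 834 counts in STIM KO and 31, 41, 2450 and 4939 in CS. Both were lower in STIM KO within replicates 3 and 4. Within replicates 1 and 2 the lncRNA was higher in STIM KO, and the snoRNA overlapped. ScaRNA:MeU5-C46 had 10, 1, 21 and 16 counts in STIM KO and 3, 5, 15 and 16 in CS. SnRNA:7SKa, a copy of the RNA that holds the elongation factor P-TEFb inactive, had 22, 0, 7 and 2 counts in STIM KO and 0, 2, 6 and 2 in CS. Uhg8 had 14, 0, 10 and 8 counts in STIM KO and 2, 2, 23 and 20 in CS. For these last 3 the groups overlapped.

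The hairpin and stable intronic RNAs were low. HpRNA:CR46342 had 52, 39, 10 and 3 counts in STIM KO and 49, 104, 7 and 13 in CS, hpRNA:CR32207 had 15, 6, 30 and 93 in STIM KO and 0, 9, 87 and 83 in CS, and hpRNA:CR33940 had at most 21 in any library. The 3 stable intronic RNAs (sisRNA:1, sisRNA:CR46357 and sisRNA:3) had at most 17 counts in any library. None of these separated by genotype. Feature NR_003895.1, without a symbol, had 3, 2, 13 and 8 counts in STIM KO and 5, 5, 3 and 8 in CS.

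Per kilobase of exon, the highest mean level over the 8 libraries was that of lncRNA:CR40469, at 13157 CPM per kb over 214 exon bases on the X chromosome. AsRNA:CR43875 followed with 3149 CPM per kb, lncRNA:CR44922 with 2396 and lncRNA:CR44832 with 1774. LncRNA:CR40469 had 5658, 1803, 242 and 617 CPM in STIM KO, against 6909, 7007, 227 and 60.2 CPM in CS. It followed the sets, with overlapping genotypes. The 10 most counted members held 34.5% of all member counts.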

How the data were processed

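Brain RNA of 4 STIM KO and 4 CS samples had been primed on poly(A) tails and amplified (SMART-Seq v4, Nextera XT). The authors deposited raw read counts per RefSeq transcript, made with HISAT2 on dm6 and HTSeq, whose strand setting is not given in the sources used here. Reads shared by several features were left out by the counting, 33.5% to 34.5% of reads for replicates 3 and 4 but 9.89% to 18.0% for replicates 1 and 2. Only 3.60% to 11.6% of all reads were counted, so values rest on reads that 1 transcript holds alone. The HTSeq summary rows, which name no gene, entered no library size or test. A further deposited table of the authors' own comparison (fold changes and p-values) was not used.

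Members and lists were chosen with earlier results of these data known. Symbols came from RefSeq (509 of 510 matched) and positions from the BDGP6.54 annotation of the same assembly. Counts were fitted with edgeR 4.0.16 (R 4.3.3): filterByExpr (minimum count 10, minimum total 15), TMM, quasi-likelihood tests and Benjamini-Hochberg adjustment over all 5829 features, with genotype alone and with the library set (replicates 1 and 2, replicates 3 and 4). The scripts were tested on simulated data. CPM used TMM, log2 CPM a prior count of 2, and single values an exact permutation test over 70 labelings. A limit of 3 counts covers counting error only. The SE of an edgeR log2 fold change is its size divided by the square root of its F statistic, so it includes the spread between libraries. Alternatives were DESeq2 1.42.0, other scalings, no filter, a replicate block, gene sums and leaving out libraries. Residuals of same-numbered samples correlated at 0.400, 0.732, 0.700 and 0.788 for numbers 1 to 4. Those of other numbers of the same set correlated at 0.357 to 0.729. These values cannot tell a pairing by number from the library set, so the replicate block was kept as an alternative only.

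The text names the well-described noncoding RNAs, the most abundant members of each class, the members called and those without overlap that differed most between genotypes or library sets, chosen with those results known, and others where said.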

Additional observations from a re-analysis of the deposited data

Results flagged for a closer look

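In 2 of the 92 groups of 4 libraries examined, 1 library lay apart from the other 3 of its genotype by more of the group's range than Dixon's limit for 4 samples allows, and chance marks about 1 in 20 groups. Both were STIM KO replicate 2, with 1 count each. For scaRNA:MeU5-C46 the gap was 0.853 of the range, and for asRNA:CR45814 it was 0.839. The other STIM KO libraries had 10 to 21 counts of scaRNA:MeU5-C46 and 8 to 17 counts of asRNA:CR45814.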

How the results depend on the processing

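The 0 members called between STIM KO and CS became 8 with DESeq2 (beside 1.4% of all features), 2 with every feature of at least 1 count (0.187%), 2 with the library set as a term (0.669%) and 2 with the replicate block (0.24%), which called asRNA:CR45890 and pre-rRNA:CR45845, and stayed at 0 under the other settings. DESeq2 called lncRNA:CR45993, lncRNA:CR45054, lncRNA:noe, lncRNA:CR44922, asRNA:CR45951 (higher) and asRNA:CR45890, asRNA:CR44201, lncRNA:CR45242 (lower). The fit without a filter called mir-979 and lncRNA:CR45993. With the set as a term the 2 calls became 32 with DESeq2 (7.69% of all features), 47 with every feature of at least 1 count (3.0%) and 0 to 5 when 1 library was left out (0.0313% to 1.12%). The 198 calls between sets ranged from 159 to 251 over all alternatives. A limit of 20 or 80 counts gave 649 or 398 members. The share difference of 1.69 percentage points was 0.889 to 2.11 when 1 library was left out, 0.822 without lncRNA:CR44922, an alternative added after seeing the data, and 0.147 as a share of all reads, where the genotypes overlapped. Of 493 alternative values over the 31 fitted named members, 468 kept direction and side of the threshold, 9 newly passed it and 16 changed sign. No other call changed with the block. Those that changed sign were roX1 (-0.27 with the set as a term, -0.37 with the block, -1.20 to 1.26 with 1 library left out), lncRNA:CR40469 (0.33 with the set, 0.16 with the block), lncRNA:mimi (0.13 in replicates 2 to 4) and scaRNA:MeU5-C46 (0.028 by library size). With 1 library left out, mostly STIM KO replicate 2, the sign also changed for MeU5-C46 (-0.30 to 0.17), let7C (-0.090 to 0.63), Hsromega (-0.58 to 2.11), hpRNA:CR32207 (-0.93 to 0.18) and pre-rRNA:CR45856 (-0.64 to 1.38). The causes were not tested. Depth limits members under the 1.28 to 9.51 CPM that 3 counts correspond to.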

Other observations

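CS replicate 2 held many noncoding features at very low counts. In this library 1445 noncoding features had at least 1 count, against 845 to 1112 in the libraries other than CS replicate 1, which had 457. Of these 950 had 1 to 3 counts, and 414 were found in no other library, whereas the other libraries had 16 to 56 such features each. Of the 414, 352 were lncRNAs. Features that were not members took 10.5% of its noncoding counts and 1.51% to 3.04% in the others. Coding features found in it alone numbered 822, beside 42 to 284 in the others.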
